A study of Mus musculus with 6 samples.

Results

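Vitamin D3 treated dendritic cells (DCs) were compared with untreated DCs across the whole transcriptome, gene by gene and by pathway and gene family. The members were the cell barcodes of 2 of the 6 libraries of the series that held at least 300 genes, fewer than 100000 UMIs (unique molecular identifiers, each standing for 1 captured transcript) and less than 10% mitochondrial UMIs, which gave 16082 of the 35083 cells of the series. For each gene the UMIs of all kept cells of a library were summed and expressed as counts per 1000000 summed UMIs of that library (CPM). The comparison covered the 10935 of 31053 listed genes that reached 200 UMIs in at least 1 of both libraries, and these genes held 99.8% of the UMIs of either library.

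The cells came from bone marrow of C57BL/6 mice, grown with GM-CSF toward DCs, and the suspension cells were sequenced with the 10X 3′ single-cell assay. The VD3 stimulated DCs received vitamin D3 as calcitriol, the active hormone, and the untreated DCs received none. The study's general methods give 1e-06 M for 24 h from day 7 of culture, while the labels give neither dose nor time for this library. The series also holds DCs with a CRISPR knockout of Ndrg2 and wound libraries, which the comparison does not use except where knockout DC values are named. Each condition had 1 library, so there was no replicate check, and every interval below covers counting error only.

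Calcitriol binds the vitamin D receptor, Vdr, a nuclear receptor that pairs with a retinoid X receptor on DNA and switches nearby genes on or off. Its best known target is Cyp24a1, the mitochondrial enzyme that breaks the hormone down, which makes this gene a standard readout of receptor activity. In DCs the hormone is known for holding back maturation and for favouring cells that restrain T cells.

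Vitamin D3 was followed by a narrow set of very large rises and a wider set of falls. Cyp24a1 went from 1 UMI to 36662 UMIs, and the stress cytokine Gdf15, the growth factors Hbegf and Pdgfa, the membrane protein Ms4a7 and the interferon-induced membrane proteins Ifitm6 and Ifitm3 rose with it. The chemokine receptor Ccr2, the C-type lectins Mgl2, Cd209a and Clec10a, the macrophage elastase Mmp12, fibronectin (Fn1) and E-cadherin (Cdh1) fell. Genes of sterol synthesis, S phase, ribosome assembly, the actin cytoskeleton and antioxidant defence were mostly lower by less than 2-fold, and ribosomal proteins and MHC class I genes were mostly higher.

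Each gene was described by the log2 ratio of its CPM in VD3 stimulated over untreated DCs, and "rose" or "fell" is used here for a difference of at least 2-fold. By that rule 327 genes rose (2.99% of those tested) and 658 fell (6.02%). At least 4-fold differences were found for 85 genes higher and 150 lower, and at least 16-fold differences for 25 higher and 18 lower. The median log2 ratio over all tested genes was -0.09 with quartiles of -0.37 and 0.19, and 78.1% of the genes lay within 1.5-fold. The genes that fell carried more RNA than those that rose. The 658 fallen genes together went from 52785 to 19802 CPM, or from 5.28% to 1.98% of all UMIs, while the 327 risen genes went from 6121 to 17855 CPM, or from 0.612% to 1.79%. Many changes were in scarce transcripts, since 160 of the risen and 300 of the fallen genes were under 10 CPM in both libraries.

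**Figure D1:**
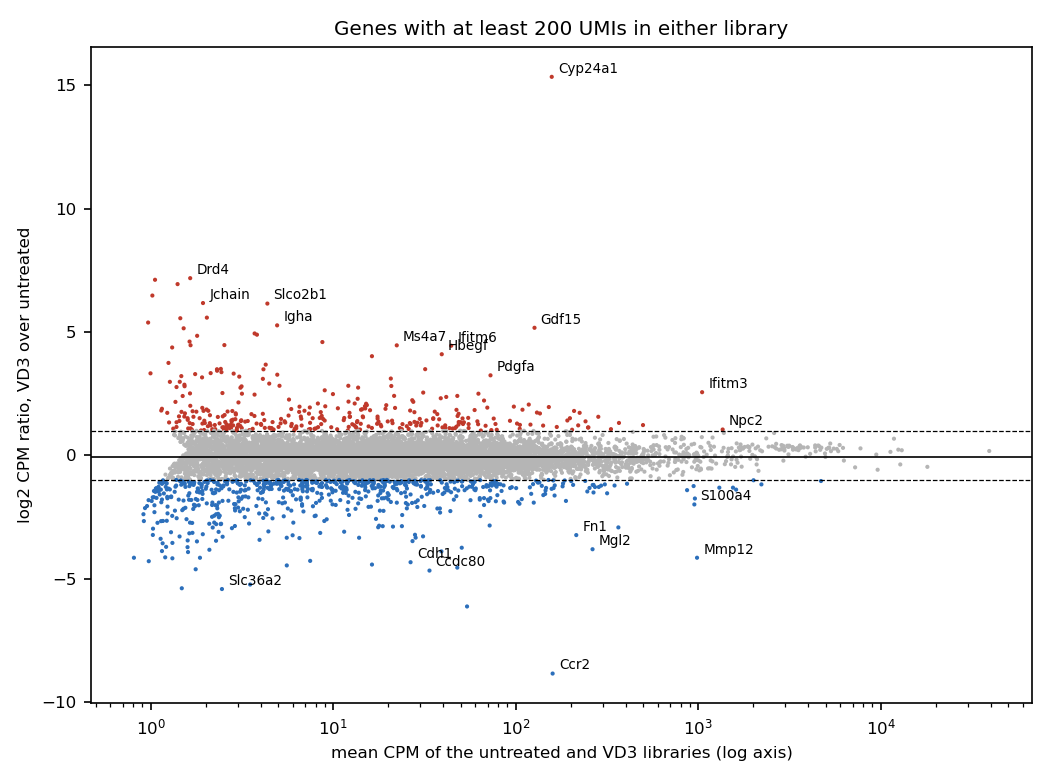
Log2 CPM ratio of VD3 stimulated over untreated DCs (vertical axis) against the mean CPM of both libraries (horizontal log axis) for the 10935 tested genes, 1 library per side. Red points are the 327 genes at least 2-fold higher, blue points the 658 at least 2-fold lower, dashed lines mark 2-fold and the solid line the median of -0.09.

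The untreated library kept 7257 of 7866 barcodes with 132574308 UMIs and a median of 15804 per cell, and the VD3 library kept 8825 of 9794 barcodes with 116461484 UMIs and a median of 12089. Among kept cells the median share of mitochondrial UMIs was 5.30% and 5.60%, respectively. The libraries shared 19 deposited barcodes, 15 of them among kept cells. Because UMIs were summed over mixed cells, fewer cells of a type and less RNA per cell cannot be told apart for any gene below. The label of DCs was checked with 10 DC markers, all of which were tested. Their sum was 8365 and 6535 CPM without and with vitamin D3, led by Cd74, the invariant chain (6743 and 5811 CPM). Of the 10, 9 were lower and 4 fell, with a median log2 ratio of -0.80. The 4 were Flt3 (2.69 to 1.099 CPM), Clec10a (29.4 to 4.91 CPM), Mgl2 (492 to 35.02 CPM) and Cd209a (2.27 to 0.129 CPM), and the higher one was the DC transcription factor Zbtb46 at 18.8 and 25.5 CPM. DC markers were therefore present in both libraries, at lower levels after vitamin D3 for all but 1 of those listed.

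Among the genes of vitamin D signalling, the hormone's breakdown enzyme and its receptor rose and a partner fell. Without and with vitamin D3, Cyp24a1 stood at 0.00754 and 315 CPM. Its log2 ratio was 15.35 (95% interval 12.87 to 20.65), the highest of all tested genes, and the width of that interval comes from the single UMI in untreated DCs. Its transcript was found in 39.7% of VD3 stimulated cells, with 112 UMIs in the cell that held the most. No background from free RNA was estimated, here or for other genes, so fewer cells may have expressed it. Vdr went from 51.1 to 135 CPM (2.64-fold, log2 1.40, 95% interval 1.36 to 1.44). The retinoid X receptor Rxra fell from 12.9 to 4.34 CPM (2.96-fold), but by less than 2-fold in cells holding mature DC markers (log2 -0.59), whereas Rxrb, another member of that receptor family, was at 18.5 and 29.8 CPM. Cyp27a1, a mitochondrial hydroxylase of sterols and vitamin D, was at 3.08 and 5.203 CPM. The enzyme that makes the active hormone, Cyp27b1, had 1 and 2 UMIs and was not tested. Of the 18 listed receptor, partner and metabolism genes 13 were tested, 2 rose, 1 fell and the median was -0.07, which turned slightly positive under the median-ratio scaling and with totals that leave out mitochondrial and ribosomal protein genes.

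Target genes known from other tissues moved in both directions. Of 21 listed, 14 were tested, 3 rose, 2 fell and the median was -0.05, again turning positive under those same 2 scalings. It was also positive in cells holding at least 3 of 8 mature DC markers (0.22) and in the other cells (0.45). The 3 that rose were Cyp24a1, Vdr and Hbegf, a heparin-binding ligand of the EGF receptor, which went from 4.34 to 74.3 CPM (17.1-fold). The cell cycle inhibitor Cdkn1b was at 21.6 and 39.2 CPM and the nuclear receptor co-repressor Nrip1 at 126 and 216 CPM. The 2 that fell were the sodium-calcium exchanger Slc8a1, from 1.71 to 0.704 CPM, and G0s2, an inhibitor of fat breakdown, from 10.2 to 3.0997 CPM. The log2 ratio of G0s2, -1.71, was -0.79 with the mean over cells, short of 2-fold. Camp, the antimicrobial peptide that the hormone raises in human cells, was at 19.02 and 19.3 CPM, and the pattern recognition coreceptor Cd14 at 44.3 and 40.9 CPM. The intestinal and bone targets S100g, Calb1, Trpv6 and Tnfsf11 had 3 UMIs or fewer in either library.

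The highest ratios beyond Cyp24a1 belonged mostly to genes that were close to absent from untreated DCs. Drd4, a dopamine receptor, had 0 UMIs in untreated and 383 in VD3 stimulated DCs, which is at least 145-fold higher when 3 UMIs are taken as the floor for a count of 0. Robo4, a guidance receptor known from blood vessels, had 2 and 244 UMIs (log2 7.12, 95% interval 5.25 to 10.17). Cpm, a membrane carboxypeptidase that trims peptides, had 3 and 324 UMIs (log2 6.94, 95% interval 5.38 to 9.23), and Ocm, a calcium-binding protein, had 3 and 235 (log2 6.48, 95% interval 4.91 to 8.77). The organic anion carrier Slco2b1 went from 0.121 to 8.59 CPM and the homeobox factor Gsc from 0.121 to 3.47 CPM. Nppc, the C-type natriuretic peptide, went from 0.249 to 7.38 CPM, and the neuronal pentraxin Nptx2 from 0.08297 to 2.95 CPM. Mdfi, an inhibitor of myogenic factors, went from 0.0603 to 2.84 CPM. The remaining ones of the 20 highest were Wdr95, Rhpn1, Klhl33, Bspry, Kbtbd11 and the predicted genes Gm38832 and Gm36028, with log2 ratios between 4.46 and 5.58, apart from Gdf15 and 2 immunoglobulin genes described next. Gm38832 was the most abundant of these 7, at 0.694 and 16.7 CPM.

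A single cell accounted for 2 of the 20 highest genes. Igha, the constant region of immunoglobulin A, had 33 and 1118 UMIs, and 1112 of the 1118 lay in 1 VD3 stimulated cell. Jchain, which links immunoglobulin units, had 7 and 444 UMIs, of which 432 were in that same cell. It also held 3994 of the 4239 UMIs of the kappa light chain Igkc, whose UMIs outside it were 245 against 688 in untreated DCs. Without that cell Igha had 6 and Jchain 12 UMIs in VD3 stimulated DCs. Ighm, the constant region of immunoglobulin M, was different, since none of its 3541 UMIs in VD3 stimulated DCs came from that cell, and untreated DCs held 1092. Immunoglobulin segments resemble each other in sequence, so their separate counts are uncertain.

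At the other end, the 20 lowest ratios included genes that were abundant in untreated DCs. Ccr2, the receptor that brings monocytes to inflamed tissue, went from 318 to 0.687 CPM. Mmp12, the protease that degrades elastin, fell from 1864 to 105 CPM (17.8-fold). Asgr2, a subunit of the asialoglycoprotein receptor, fell from 91.7 to 3.898 CPM, the secreted protein Ccdc80 from 64.8 to 2.53 CPM, and Cdh1, the cadherin of cell contacts, from 50.5 to 2.499 CPM. The calcium-activated potassium channel Kcnn4 fell from 73.3 to 4.92 CPM and the platelet chemokine Ppbp from 31.1 to 1.44 CPM. Dhrs9, a short-chain dehydrogenase that acts on retinol, fell from 14.2 to 0.7299 CPM, and B3gnt7, a glycosyltransferase, from 10.6 to 0.481 CPM. The amino acid carrier Slc36a2 (log2 -5.43) and the serpin Serpinb12 (-5.39) ended at 13 and 8 UMIs in VD3 stimulated DCs. Others were Smim5, Lad1, Gm5833, Ms4a8a, Bex6, Gm47507, Cd209a and Kcne3, all under 7 CPM in untreated DCs.

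**Figure D2:**
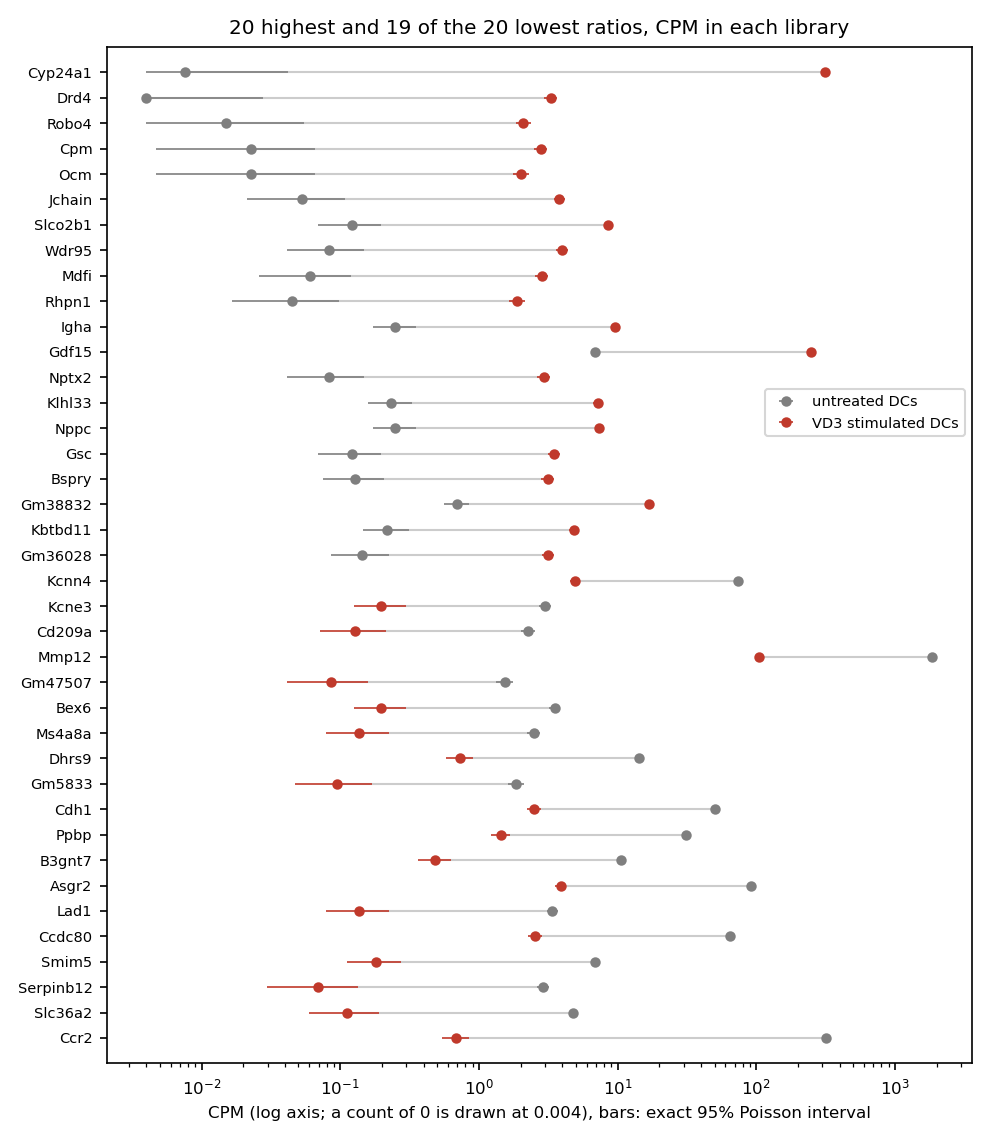
CPM in untreated (grey) and VD3 stimulated DCs (red) on a log axis for the 20 genes with the highest ratio and 19 of the 20 with the lowest, with bars for the exact 95% Poisson interval of the count. Cyp24a1 went from 0.00754 to 315 CPM and Ccr2 from 318 to 0.687 CPM.

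The next paragraphs describe 64 gene lists, and each list is read against the same measures over all tested genes, of which 2.99% rose and 6.02% fell with a median of -0.09. A list's median kept its sign under 3 other scalings (median-ratio size factors, totals without mitochondrial and ribosomal protein genes, and the mean over cells of each cell's own CPM) unless a change is stated. Of 251 genes past 2-fold among those the fixed rule chose, 159 stayed past it under each of 14 alternative settings that could be computed for them, so the 2-fold call of the others depends on the cells or scaling used. The 159 include Igha and Jchain, which had too few UMIs to be computed without the single cell described above and whose counts there do not support a rise past 2-fold. No list was tested against chance. Beside the genes a fixed rule chose, the cell type markers and Pdgfb, Plaur, Nrip1, Camp, Cd14, Cd86, Cd244, Cd36, Scd2 and Srebf2 were chosen after their values were seen.

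Secreted growth factors held several of the largest rises as well as large falls. Of 43 listed angiogenic and growth factors, 27 were tested, 6 rose and 8 fell, with a median of -0.35. Gdf15, a distant member of the TGF-beta family that is released under stress, went from 6.84 to 246 CPM (36.02-fold), and its transcript was found in 442 untreated and 3160 VD3 stimulated cells. The platelet-derived growth factors Pdgfa (13.9 to 131 CPM) and Pdgfb (12.8 to 42.9 CPM) both rose. Insulin-like growth factor 1 (Igf1) fell from 20.5 to 2.396 CPM, activin subunit Inhba from 15.4 to 2.43 CPM, the urokinase Plau from 5.08 to 0.696 CPM and its receptor Plaur from 122 to 33.5 CPM. Flt1, a receptor that binds VEGF, fell from 2.32 to 0.266 CPM. In the list of Wnt, Notch and TGF-beta signalling, 32 of 48 were tested, 4 rose, 5 fell and the median was -0.02, which was positive under the median-ratio scaling and without mitochondrial and ribosomal protein genes. The ligands Tgfb3 (0.173 to 2.33 CPM) and Tgfb2 (0.792 to 5.495 CPM) and the receptor Tgfbr2 (20.6 to 73.999 CPM) rose, as did Wnt11 (2.66 to 10.4 CPM). The partner receptor Tgfbr1 fell from 60.2 to 21.1 CPM, the receptor Acvrl1 from 10.2 to 3.01 CPM and the Notch ligand Jag1 from 4.24 to 0.618 CPM. Tgfb1, the most abundant ligand of the family here, was at 226 and 216 CPM.

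Chemokine receptors split between strong falls and smaller rises. Of 23 listed, 9 were tested, 2 rose and 3 fell, and their median of 0.75 became -0.02 with the mean over cells. Besides Ccr2, the fractalkine receptor Cx3cr1 fell, and Ccr1, another receptor of inflammatory chemokines, was at 143 and 80.7 CPM. Ccr9, which guides cells to the gut, rose from 0.671 to 2.28 CPM, and the chemokine-binding receptor Ccrl2 from 6.23 to 18.4 CPM, although its log2 ratio was 0.59 with the mean over cells. Among the chemokines, 18 of 42 were tested, 3 rose, 6 fell and the median was -0.40. The inflammatory chemokine Ccl4 rose from 60.4 to 201 CPM, and Ccl3, its close relative, was at 74.1 and 139 CPM. The interferon-induced Cxcl10 went from 1.705 to 5.42 CPM, with 44.5% of its UMIs in VD3 stimulated DCs in 10 cells, and was found in 1.86% and 2.15% of cells. Ccl17, which attracts T cells through Ccr4, fell from 3078 to 1358 CPM, the neutrophil attractants Cxcl2 and Cxcl1 from 86.7 to 34.1 CPM and 1.57 to 0.481 CPM, the monocyte attractant Ccl12 from 2.96 to 0.867 CPM, and Cxcl14 from 2.92 to 0.266 CPM. The fall of Cxcl2 was log2 -0.36 in cells under 5% mitochondrial UMIs and that of Cxcl1 -0.75 with the mean over cells, both short of 2-fold. Ccl5, the most abundant chemokine here, was at 3146 and 2705 CPM.

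Other G protein-coupled receptors and their regulators also moved in both directions, with 60 of 149 tested, 5 rising, 13 falling and a median of -0.24. S1pr1, the sphingosine-1-phosphate receptor that leads cells out of tissue, rose from 0.807 to 5.39 CPM, and the lysosomal protein Gpr137b from 29.5 to 74.5 CPM. Fpr2, a receptor of bacterial and host peptides, fell from 60.8 to 13.6 CPM, the short-chain fatty acid receptor Ffar2 from 25.3 to 5.92 CPM and the adenosine receptor Adora2b from 26.03 to 6.14 CPM. Fpr2 was sensitive to the mitochondrial limit, since its log2 ratio of -2.16 became -0.73 when only cells under 5% mitochondrial UMIs were used.

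Of 32 listed cytokines, 18 were tested, 3 rose, 1 fell and the median was 0.35. Interleukin 1 alpha (Il1a) rose from 10.8 to 25.5 CPM and interleukin 15 (Il15), which supports natural killer and memory T cells, from 15.4 to 32.1 CPM. The interleukin 1 receptor antagonist Il1rn, a decoy ligand, fell from 71.8 to 22.7 CPM. Interleukin 10 had 7 and 10 UMIs and was not tested. The receptors of interleukins and growth factors had 50 of 77 tested, 4 rising, 13 falling and a median of -0.28. The IL-1 receptor Il1r1 fell from 2.07 to 0.197 CPM, the IL-33 receptor Il1rl1 from 8.35 to 2.16 CPM and the IL-18 receptor subunit Il18rap from 10.8 to 2.72 CPM. The log2 ratio of Il18rap, -1.98, was -0.88 in cells under 5% mitochondrial UMIs, short of 2-fold. The stem cell factor receptor Kit rose from 1.89 to 30.7 CPM and the IL-17 receptor family member Il17re from 0.732 to 4.21 CPM. Ifngr1, the ligand-binding chain of the interferon gamma receptor, went from 51.6 to 106 CPM. The growth factor receptor subunit Csf2rb, which carries the GM-CSF signal and was the most abundant receptor of the list, was at 795 and 865 CPM.

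Antigen presentation genes differed between both MHC classes. Of 18 listed genes of class II presentation, 17 were tested, none rose, 2 fell and the median was -0.21. The 2 were H2-DMb1 (212 to 78.8 CPM), a chain of the molecule that loads peptides, and Ciita (46.2 to 17.98 CPM), the master activator of class II genes. Ctss, the protease that trims the invariant chain, was at 890.3 and 508 CPM. Of 22 class I genes, all tested, 16 were higher, 3 rose and none fell, with a median of 0.29. The nonclassical class I genes H2-Q6 (47.3 to 170.3 CPM), H2-Q7 (93.2 to 324 CPM) and H2-Q4 (22.4 to 47.2 CPM) rose, and the first pair is so similar in sequence that its separate counts are uncertain. The peptide transporter subunit Tap2 was at 46.9 and 89.9 CPM, the classical class I chain H2-K1 at 962 and 1799 CPM and its partner B2m at 1355 and 1892 CPM. Calr, a chaperone of class I assembly, was at 568 and 296 CPM.

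Costimulatory and inhibitory ligands were mostly within 2-fold, and those outside it were lower. Of 25 listed, 20 were tested, none rose, 5 fell and the median was -0.22. Cd40, through which T cells license DCs, fell from 14.6 to 5.16 CPM, the inhibitory ligand Pdcd1lg2 (PD-L2) from 49.3 to 18.6 CPM, Slamf1 from 9.23 to 3.51 CPM and the cytokine Tnfsf15 from 3.68 to 0.653 CPM. The other fallen gene was Cd244, at 12.2 and 6.04 CPM. Cd274 (PD-L1), the most abundant of the list, was at 119.7 and 142 CPM, and Cd86 at 90.7 and 84.98 CPM. Genes associated with tolerance in DCs and macrophages showed more falls than rises, with 30 of 35 tested, 2 rising, 10 falling and a median of -0.40. The checkpoint receptor Havcr2 (Tim-3) went from 2.62 to 6.67 CPM. The adenosine-producing enzyme Nt5e fell from 9.21 to 2.06 CPM and the inhibitory receptor Cd200r1 from 107 to 26.5 CPM. Lgals3, a galectin, was at 4419 and 6151 CPM. The tryptophan-degrading enzyme Ido1 had 13 and 26 UMIs and was not tested.

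Toll-like receptors, their adaptors and the NF-kB system moved little as groups. In the first list 28 of 32 were tested, 3 rose, 3 fell and the median was -0.12. Unc93b1, which carries nucleic acid-sensing receptors to endosomes, rose from 134 to 348 CPM, and Tlr1 and the coreceptor Ly86 also rose, while Tlr2, Tlr13 and the inflammasome sensor Nlrp3 fell (107 to 46.7, 11.9 to 5.44 and 42.4 to 21.1 CPM). All 25 listed genes of the NF-kB system were tested, none rose and 1 fell, Tnip3 (201 to 101 CPM), and their median of 0.03 was -0.05 with the mean over cells. The inhibitor Nfkbia was at 299 and 577 CPM and Nfkbiz at 9.16 and 18.2 CPM.

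Interferon-stimulated genes included a subset with clear rises. Of 59 listed, 45 were tested, 11 rose and none fell, with a median of 0.11. That median was -0.02 in cells holding mature DC markers (36 genes) and 0.42 in the other cells (42 genes). The difference between both kinds of cells was not tested. Ifitm3, a membrane protein that blocks viral entry, rose from 305 to 1794 CPM (5.89-fold) and its relative Ifitm6 from 3.89 to 84.7 CPM (21.8-fold). The guanylate-binding protein Gbp2 rose from 63.99 to 207 CPM, and Rsad2 (viperin) from 1.95 to 6.27 CPM. Not all classical members did so. Isg15, a ubiquitin-like modifier, was at 7.08 and 3.68 CPM, Mx1 at 49.3 and 26.4 CPM, Oas3 at 2.203 and 1.26 CPM and Ifit1 at 1.61 and 0.936 CPM. The type I interferon gene Ifnb1 had 0 and 1 UMIs. The Ifitm genes are similar in sequence, so their separate counts are uncertain.

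C-type lectins and scavenger receptors, which bind sugars and modified lipoproteins for uptake, were the list with the lowest median. Of 53 listed, 28 were tested, 16 fell and 1 rose, and the median was -1.22 with quartiles of -2.25 to -0.22. Mgl2, the galactose-type lectin Cd301b, fell from 492 to 35.02 CPM (14.04-fold), the DC-SIGN homolog Cd209a from 2.27 to 0.129 CPM and the scavenger receptor Marco from 2.96 to 0.223 CPM. Clec4n (dectin-2), the most abundant member, fell from 1263 to 474 CPM and the scavenger receptor Cd36 from 182 to 61.4 CPM. The single gene that rose was Scarb2, a lysosomal membrane receptor, from 62.9 to 148 CPM, and the inhibitory lectin Clec12a was at 91.4 and 169.7 CPM. Clec4b1 fell from 31.3 to 4.33 CPM, and since the Clec4a and Clec4b genes are close paralogs, their separate counts are uncertain.

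Other receptors of innate recognition were mixed. Of 11 Fc receptor genes, 8 were tested, 1 rose and 2 fell, and their median of -0.18 was 0.03 with the mean over cells. Fcgr1, the high-affinity receptor of immunoglobulin G, fell from 42.8 to 11.2 CPM and the Fc receptor-like gene Fcrls from 25.2 to 2.48 CPM. Among complement genes, 11 of 21 were tested, 1 rose, 2 fell and the median was 0.17. The central component C3 rose from 104 to 344 CPM, with a log2 ratio of 1.72 that was 0.86 in cells under 5% mitochondrial UMIs. C1qa, a chain of the starter complex C1q, was at 129 and 251 CPM. The anaphylatoxin receptor C3ar1 fell from 28.4 to 8.47 CPM and the complement receptor integrin Itgam (CD11b) from 198 to 52.4 CPM, the latter with a log2 ratio of -1.92 that was -0.78 under that stricter mitochondrial limit.

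Paired inhibitory and activating receptors held falls and a few large rises, with 37 of 62 tested, 6 rising, 14 falling and a median of -0.46. Ms4a7, a tetraspan protein of macrophages, rose from 1.94 to 42.6 CPM (21.98-fold), and Treml2 from 28.2 to 71.5 CPM. Trem2, a lipid-sensing receptor of macrophages, went from 157 to 343 CPM. Cd200r4 fell from 94.1 to 6.998 CPM, Clec4a2 from 126 to 17.5 CPM and Ms4a3, a protein of granulocyte-monocyte progenitors, from 64.1 to 12.8 CPM. Several of these receptors have near-identical relatives, so the counts of Cd200r4, Pira2 and Lilra6 are uncertain. The adaptor Tyrobp was at 1048 and 918 CPM. Among galectins and annexins, 15 of 20 were tested, none rose, 4 fell and the median was -0.38. The membrane-binding annexin Anxa2 fell from 471 to 162 CPM, Anxa3 from 404 to 166 CPM, Anxa1 from 323 to 157 CPM and the galectin Lgals1 from 427 to 188 CPM.

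Extracellular matrix proteins and the proteases that remodel them were mostly lower. Of 37 listed, 27 were tested, 11 fell, 3 rose and the median was -0.82. The listed genes summed to 4044 and 1436 CPM without and with vitamin D3, a difference carried largely by Mmp12. Fn1, the matrix protein fibronectin, fell from 388 to 41.1 CPM (9.43-fold). The 3 that rose were the gelatinase Mmp9 (7.63 to 19.4 CPM), the sheddase Adam19 (16.5 to 41.2 CPM) and the heparan sulfate-cleaving Hpse (6.83 to 14.2 CPM). In the list of serpins, cystatins and related inhibitors, 29 of 99 were tested, 4 rose, 6 fell and the median was -0.36. Serpina11 rose from 0.8599 to 7.37 CPM, and Serpinb1a, an inhibitor of neutrophil proteases, fell from 50.7 to 5.42 CPM. Cystatin C (Cst3), the most abundant inhibitor of the list, was at 8450.0 and 6015 CPM. The stefin genes Stfa2, Stfa1 and BC100530, near-identical genes known from neutrophils, were also past 2-fold higher. Without cells holding granulocyte or monocyte markers the log2 ratio of Stfa2 turned from 1.36 to -1.01. That of BC100530 went from 1.26 to 1.81 without those cells. Stfa1 was positive under all 14 alternatives, with its lowest log2 ratio, 0.32, in cells holding mature DC markers. The part of neutrophils in these rises was not tested.

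Integrins and other adhesion molecules were mostly lower, with a few rises. Of 27 integrin genes, 16 were tested, 2 rose, 2 fell and the median was -0.48. The gut-homing subunit Itgb7 rose from 18.4 to 52.2 CPM. Itgb3 went from 1.101 to 2.26 CPM, but 69.2% of its UMIs in VD3 stimulated DCs were in 10 cells, and the share of cells with it was 0.937% and 0.929%. Itgam and Itgal, the alpha chains of the beta 2 integrins Mac-1 and LFA-1, fell, the latter from 58.5 to 23.3 CPM. Among other adhesion molecules and tetraspanins, 35 of 46 were tested, 3 rose, 12 fell and the median was -0.22. Besides Cdh1, the epithelial adhesion molecule Epcam fell from 3.83 to 0.7299 CPM, the leukocyte ligand Vcam1 from 2.16 to 0.146 CPM and the tetraspanin Tspan18 from 2.07 to 0.404 CPM. Cd63, the most abundant tetraspanin, was at 703 and 523 CPM.

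Genes of the actin cytoskeleton and motility were lower as a group by amounts that were mostly under 2-fold. Of 65 listed, 64 were tested, 55 were lower, 10 fell, 1 rose and the median was -0.41. Nuclear lamin A (Lmna) fell from 72.5 to 15.1 CPM, the unconventional myosin Myo1e from 40.96 to 10.3 CPM, the focal adhesion protein Zyx from 295 to 81.7 CPM and the tubulin Tubb2b from 15.2 to 4.22 CPM. The falls of Zyx and Myo1e were smaller in cells holding mature DC markers, at log2 -0.88 and -0.96. Rac2, a GTPase of blood cells, rose from 215 to 449 CPM, and the related GTPase Rhoc was at 71.7 and 139.8 CPM. The actin-binding peptide Tmsb4x was at 36926 and 41641 CPM and Actb, a cytoplasmic actin, at 11538 and 7682 CPM. In the S100 list of calcium-binding proteins 8 of 16 were tested, none rose, 2 fell and the median was -0.14. S100a4 fell from 1521 to 382 CPM and S100a6 from 1860.0 to 748 CPM.

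Lysosomal genes did not move together. Of 61 listed, 55 were tested, 2 rose, 6 fell, and the median of -0.07 was about 0 or positive under the median-ratio scaling and without mitochondrial and ribosomal protein genes. Npc2, which hands cholesterol on inside the lysosome, rose from 888 to 1832 CPM together with Scarb2. The bone-resorbing protease Ctsk fell from 1.97 to 0.309 CPM, the dipeptidyl peptidase Ctsc from 362 to 145 CPM, the acid phosphatase Acp5 from 22.8 to 9.63 CPM and lysosomal acid lipase (Lipa) from 229 to 98.1 CPM. The proton pump that acidifies these vesicles had 19 of 25 listed subunit genes tested, none at least 2-fold different, and a median of -0.11. Its subunit Atp6v0a1 was at 73.05 and 42.7 CPM.

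Genes of lipid uptake and transport were mostly lower. Of 34 listed lipid handling genes, 31 were tested, 2 rose, 10 fell and the median was -0.28. Lipoprotein lipase (Lpl) fell from 1478 to 438 CPM, the fatty acid-binding proteins Fabp4 and Fabp5 from 4.22 to 0.489 CPM and 2685 to 1330.3 CPM, and cholesterol 25-hydroxylase (Ch25h) from 3.99 to 0.575 CPM. The oxysterol-sensing nuclear receptor Nr1h3 fell from 3.65 to 0.532 CPM. The 2 that rose were Trem2 and Npc2.

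Sterol synthesis was lower at nearly every step. Of 27 listed genes, 26 were tested, 24 were lower, 5 fell, none rose and the median was -0.65. Cyp51, an enzyme of the later steps of cholesterol synthesis, fell from 38.2 to 11.9 CPM. The early enzyme Hmgcs1 fell from 45.6 to 19.96 CPM and Hsd17b7 from 10.1 to 4.32 CPM. Srebf2, the transcription factor of this pathway, also fell, at 59.4 and 28.4 CPM. Fatty acid synthesis showed a similar pattern with 2 exceptions, as 19 of 24 were tested, 17 were lower, 4 fell and 2 rose, with a median of -0.60. Fatty acid synthase (Fasn) fell from 36.5 to 12.9 CPM and the triglyceride-making Dgat2 from 6.75 to 1.79 CPM. The exceptions were Dgat1, the other enzyme of that last step, which rose from 13.5 to 69.7 CPM, and the desaturase Scd1, which rose from 9.99 to 44.9 CPM while Scd2 was at 65.8 and 35.4 CPM.

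Fat burning genes stayed within 2-fold, while lipid mediator genes held rises and falls. Of 29 fatty acid oxidation genes, 26 were tested and none differed by 2-fold, and their median of -0.06 was slightly positive under all 3 other scalings. The mitochondrial carrier Ucp2 was at 469 and 251 CPM and the nuclear receptor Pparg at 11.6 and 6.98 CPM. Of 24 eicosanoid genes, 20 were tested, 2 rose, 3 fell and the median was -0.32. The inducible cyclooxygenase Ptgs2 rose from 0.392 to 4.22 CPM, with 31.7% of its UMIs in VD3 stimulated DCs in 10 cells, and the lipoprotein-associated phospholipase Pla2g7 rose from 143 to 423 CPM. The prostacyclin receptor Ptgir fell from 21.7 to 4.81 CPM and monoacylglycerol lipase (Mgll) from 76.3 to 28.6 CPM.

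Central carbon metabolism was lower in glycolysis and close to level in mitochondria. Of 31 glycolysis genes, 27 were tested, 20 were lower, 3 fell, none rose and the median was -0.41. The platelet-type phosphofructokinase Pfkp, which commits sugar to the pathway, fell from 162 to 43.7 CPM, hexokinase 2 (Hk2) from 37.4 to 17.4 CPM and the lactate carrier Slc16a1 from 9.06 to 4.43 CPM. Gapdh was at 1746 and 1684 CPM. All 8 genes of the pentose phosphate pathway were tested, 6 were lower, none reached 2-fold and the median was -0.52, with Taldo1 higher (572 and 925 CPM). Among 26 genes of the TCA cycle, 21 were lower with a median of -0.14, none fell and 1 rose. That one was Idh1, the cytosolic isocitrate dehydrogenase that supplies NADPH, which went from 105 to 279 CPM. Nuclear genes of oxidative phosphorylation (80 of 81 tested) had a median of 0.06 and 1 rise, Cox7a1 (2.92 to 6.27 CPM). The 13 of the mitochondrial genome had a median of 0.20, no member past 2-fold, and a negative median in cells under 5% mitochondrial UMIs, a limit that acts on these same genes.

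Amino acid and redox genes leaned downward. Of 26 genes of arginine, tryptophan and polyamine metabolism, 22 were tested, 2 rose, 4 fell and the median was -0.37. Il4i1, a secreted amino acid oxidase, rose from 211 to 524 CPM. The arginine carrier Slc7a2 fell from 49.9 to 4.46 CPM and the arginine-making enzyme Ass1 from 395 to 139 CPM. All 35 NRF2 and antioxidant genes were tested, 31 were lower, 5 fell, none rose and the median was -0.34. The peroxide-removing Prdx1 fell from 2209 to 889 CPM, its repair enzyme Srxn1 from 70.6 to 26.2 CPM and Gclm, a subunit of the enzyme that starts glutathione synthesis, from 386 to 158 CPM. The transferase Gsta3 fell from 2.93 to 0.438 CPM. Ferritin heavy chain (Fth1), which stores iron, was at 20902 and 15091 CPM.

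Genes of metal handling also fell more often than they rose. Of 23 iron and heme genes, 18 were tested, 1 rose, 3 fell and the median was -0.31. The iron exporter Slc40a1 rose from 2.67 to 5.76 CPM, while the transferrin receptor Tfrc, which brings iron in, fell from 43.3 to 20.6 CPM, and the heme synthesis enzyme Alas1 from 169.9 to 68.99 CPM. The log2 ratio of Slc40a1, 1.11, was 0.55 with the mean over cells, short of 2-fold. Among metallothioneins and zinc carriers, 15 of 16 were tested, 5 fell, none rose and the median was -0.25. All 5 that fell were zinc importers of the Slc39a family, the lowest being Slc39a2 (3.86 to 0.507 CPM), whereas the zinc-binding Mt1 was at 785 and 1306 CPM.

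Stress programs were mostly lower by small steps. Of 30 genes of protein folding in the endoplasmic reticulum, 29 were tested, 26 were lower, none reached 2-fold and the median was -0.38. The disulfide isomerase Pdia6 was at 180.1 and 95.6 CPM. Of 35 genes of the integrated stress response and amino acid supply, 31 were tested, 26 were lower, 2 fell, none rose and the median was -0.41. The 2 were the large neutral amino acid carrier Slc7a5 (36.4 to 14.3 CPM) and the serine synthesis enzyme Psat1 (25.6 to 11.9 CPM). Heat shock proteins (26 of 30 tested) had a median of -0.25 and 1 fall, the mitochondrial chaperonin Hspd1 (215 to 106 CPM). Hypoxia response genes leaned upward, with 24 of 28 tested, 2 rising, 1 falling and a median of 0.20. Vegfa went from 3.64 to 14.4 CPM and the peptide Adm from 1.72 to 3.47 CPM, although the log2 ratio of Adm was 0.35 with the mean over cells. Glucocorticoid-responsive genes (17 of 19 tested) had no rise, 2 falls and a median of 0.30, and the kinase Sgk1 fell from 31.2 to 6.53 CPM. Their median was -0.03 both in cells under 5% mitochondrial UMIs and in cells holding under 3 mature DC markers.

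Transcripts of protein synthesis genes split between ribosomal proteins and the factors of ribosome assembly. Of 84 cytosolic ribosomal protein genes, 82 were tested, 70 were higher, none reached 2-fold and the median was 0.28. Together they stood at 204945 and 246104 CPM, with Rpsa, a protein of the small subunit, at 6992 and 8486 CPM. In contrast, 33 of 35 tested genes of ribosome assembly and the nucleolus were lower (36 were listed), 3 fell and the median was -0.63. The fallen genes were Utp20 (20.8 to 9.01 CPM), Bysl (20.4 to 9.5997 CPM) and Dkc1 (40.6 to 19.7 CPM), which process or modify ribosomal RNA. The charging enzymes of transfer RNA were lower in 19 of 20 cases with a median of -0.37, and none reached 2-fold. Translation factors (61 of 66 tested) had a median of -0.21, with Eef2k, the kinase that slows elongation, rising from 4.96 to 21.2 CPM and Eif5a at 799.7 and 417 CPM. Mitochondrial ribosomal proteins (77 of 78 tested) had 1 fall, Mrps28, and a median of -0.05 that was slightly positive under all 3 other scalings. Proteasome genes (47 of 48 tested) were lower in 37 cases with none past 2-fold and a median of -0.21, but the interferon-inducible subunit Psmb9 was at 175 and 280.1 CPM.

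**Figure D3:**
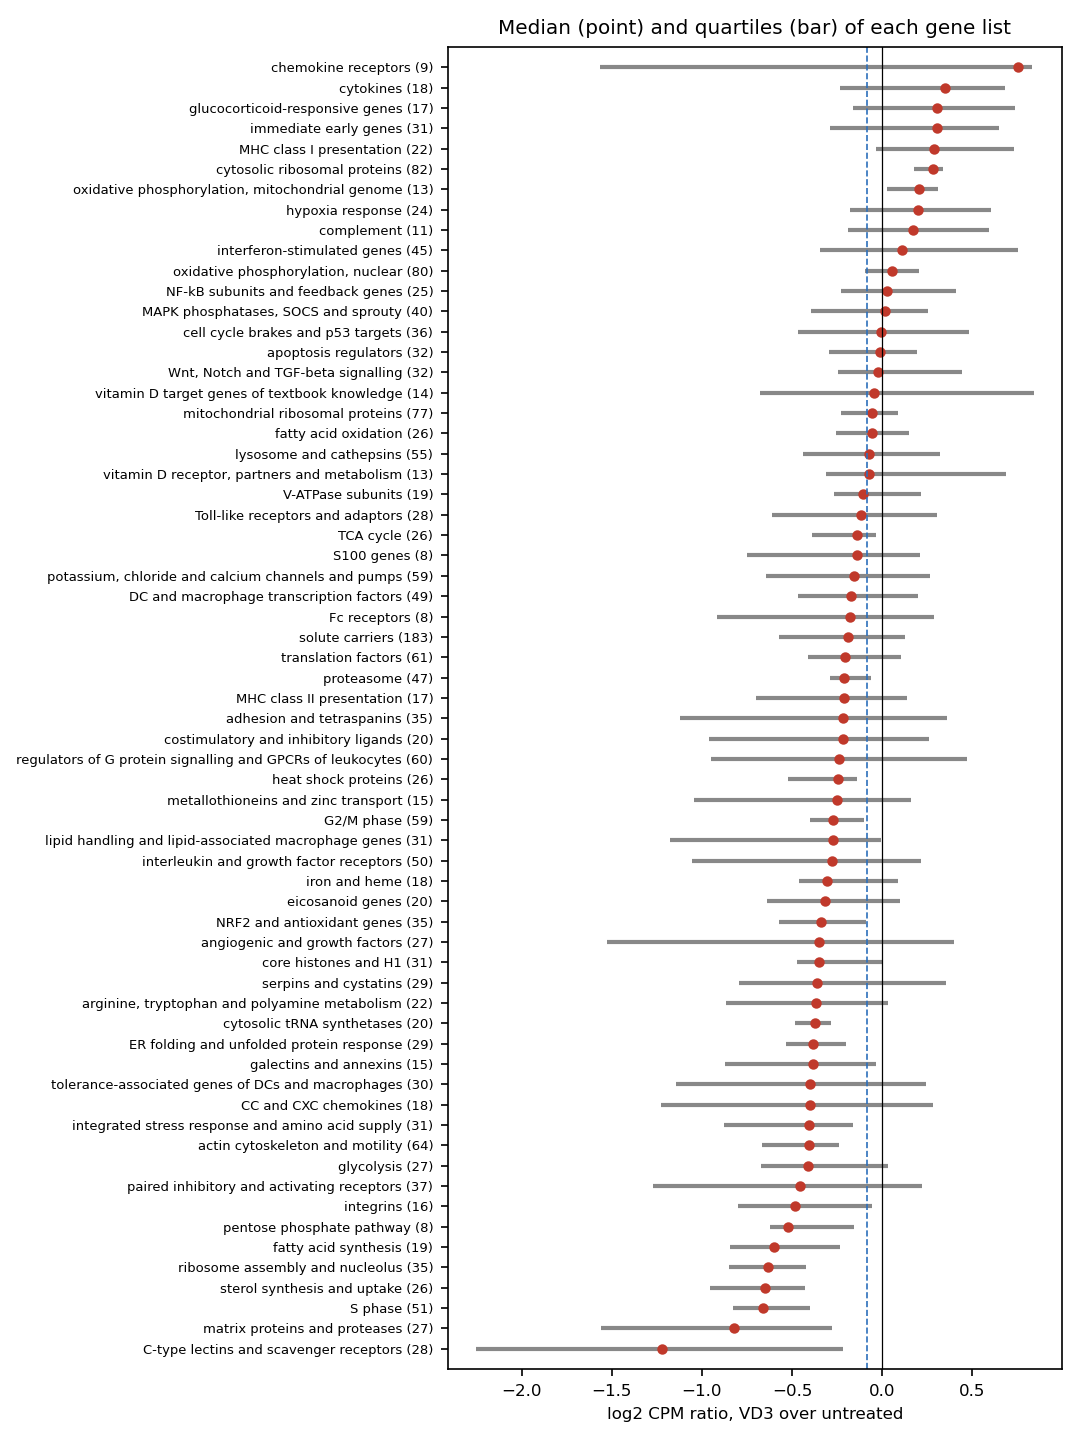
Median log2 CPM ratio (points) and quartiles (bars) of the 64 gene lists, VD3 stimulated over untreated DCs, with the number of tested genes in brackets, the solid line at 0 and the dashed line at the median of all tested genes, -0.09. C-type lectins and scavenger receptors were lowest at -1.22, and the highest median, 0.75 for chemokine receptors, turned to -0.02 with the mean over cells.

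Genes of DNA replication were lower almost throughout. All 51 S phase genes were tested, 49 were lower, 6 fell, none rose and the median was -0.66. The replication factor Gins1 fell from 5.95 to 2.07 CPM, Uhrf1, which keeps DNA methylation during replication, from 31.9 to 14.5 CPM, and the cyclin Ccne2 from 13.1 to 6.199 CPM. All 59 genes of G2 and mitosis were tested, 50 were lower, none reached 2-fold and the median was -0.27, but the centromere protein Cenpa was at 93.7 and 174 CPM. The median of these genes was -0.33 in cells holding mature DC markers and 0.02 in the other cells. The share of cells holding at least 3 of 6 proliferation markers, each cell drawn down to 2000 UMIs, was 16.4% in untreated (95% interval 15.6 to 17.4) and 13.1% in VD3 stimulated DCs (12.4 to 13.9), by the exact binomial method, with 472 and 1149 shallower cells left out. Core histones (31 of 80 tested) had 3 falls, no rise and a median of -0.35. Among cell cycle brakes and p53 targets, 36 of 37 were tested, 1 rose, 2 fell, and the median was -0.00, which turned positive under the median-ratio scaling and without mitochondrial and ribosomal protein genes. The antiproliferative Tob1 rose from 26.8 to 75.4 CPM, and cyclin D1 (Ccnd1), which drives entry into the cycle, fell from 46.8 to 10.9 CPM. Of 34 apoptosis regulators, 32 were tested, 1 rose, 1 fell, and the median of -0.01 turned positive under those same 2 scalings. The survival factor Bcl2l1 fell from 26.9 to 11.5 CPM.

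Transcription factors changed more often downward. Of 50 listed factors of DCs and macrophages, 49 were tested, 1 rose, 10 fell and the median was -0.17. Irf8, which directs DC and monocyte fate, rose from 133 to 307 CPM. The myeloid factor Cebpa fell from 30.3 to 9.93 CPM, Tfec from 65.3 to 23.1 CPM and the repressor Bhlhe41 from 9.72 to 2.05 CPM. Id2, the most abundant factor of the list, was at 777 and 581 CPM. Immediate early genes leaned upward, with 31 of 33 tested, 21 higher, 1 rising, 2 falling and a median of 0.30. Zfp36, which destabilises cytokine transcripts, went from 133 to 273 CPM, and Klf4, a factor of monocyte differentiation, fell from 62.4 to 23.2 CPM. MAPK phosphatases, SOCS and sprouty genes (40 of 57 tested) had 1 rise, Dusp14 (0.7996 to 3.03 CPM), and 5 falls, led by the lymphoid phosphatase Ptpn22 (19.6 to 5.92 CPM), and their median of 0.02 was -0.04 with the mean over cells.

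Transporters and channels were the broadest lists. Of 381 solute carriers, 183 were tested, 8 rose, 22 fell and the median was -0.19. Beside Slco2b1, the highest were the mitochondrial coenzyme A carrier Slc25a42 (1.26 to 8.89 CPM), the inositol carrier Slc5a3 (5.71 to 18.8 CPM) and the mitochondrial NAD carrier Slc25a51 (39.8 to 112 CPM). The serotonin transporter Slc6a4 fell from 4.496 to 0.455 CPM. Among channels and pumps for potassium, chloride and calcium, 59 of 203 were tested, 5 rose, 5 fell and the median was -0.15. Potassium channel genes were found at both ends, with Kcnq3 (0.324 to 3.18 CPM) and Kcng2 (1.05 to 7.87 CPM) rising, and Kcnn4 and the channel subunit gene Kcne3 (3.002 to 0.197 CPM) falling. The calcium release channel Ryr1 fell from 7.94 to 1.35 CPM.

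Families sharing a symbol stem were grouped by name alone. Stems such as Rpl, Rps, Clec and Mcm share genes with the lists above, so they are no independent view of them. Of 117 stems with at least 10 tested genes, the highest medians were those of Rpl (0.29, 52 genes) and Rps (0.25, 42 genes), the latter including a few ribosomal kinases, followed by Smim (0.23), Ift (0.20), Pde (0.17) and Klhl (0.16). Ift genes, which carry cargo along cilia, were higher in 12 of 13 cases with none past 2-fold. The lowest medians were those of Clec (-1.23, 9 of 16 at least 2-fold lower), Galnt (-0.74, 10 genes that start O-linked sugar chains), Myo (-0.61, 14 of 14 myosins lower), Mcm (-0.55, 9 of 10 lower, most of them parts of the replication helicase), Sept (-0.54) and Klf (-0.46). All 12 medians kept their sign under the 3 other scalings.

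Markers of other cell types were measured because the cultures were mixed, and their part in the result was not tested. Premature DC markers fell in 6 of 8 cases and summed to 9976 and 4195 CPM, most of it from Lyz2 (6333 and 3070.1 CPM). Mature DC markers (8 of 8 tested, 1 rose, sums 6301 and 6200.0 CPM, most abundant Ccl5) had a median of 0.22 that was -0.14 with the mean over cells. Macrophage markers (11 of 11 tested) had 1 rise, 4 falls and sums of 881 and 1119 CPM, with C1qb most abundant. Their members split, as Ms4a7 rose while Apoe (26.9 to 9.32 CPM), Fcgr1 and Mrc1 (62.7 to 14.1 CPM) fell. Granulocyte or monocyte markers (7 of 7 tested) summed to 5602 and 6458 CPM, led by S100a8 (3044 and 3561 CPM), with 1 fall, the monocyte antigen Ly6c2 (213 to 69.6 CPM). Neutrophil granule and maturation markers (13 of 15 tested, 1 rose, 4 fell) summed to 622 and 678 CPM, led by Lcn2 (136 and 263 CPM).

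Scarcer cell types were followed in the same way. Eosinophil markers (4 of 8 tested, 1 rose, 2 fell) summed to 91.3 and 36.5 CPM because of Ear2 (56.3 and 5.76 CPM), whose close relatives make its count uncertain. Basophil or mast cell markers (7 of 7 tested, none past 2-fold) summed to 69.6 and 64.5 CPM, and proliferation markers (6 of 6, none past 2-fold) to 939 and 749 CPM. Progenitor markers (8 of 9 tested) had 5 falls and 1 rise, Kit, and summed to 232 and 124 CPM, with Cdk6 most abundant (77.3 and 30.5 CPM) and Mycn at 0 in untreated DCs. Markers of cross-presenting cDC1 cells (6 of 8 tested) had 1 fall, Naaa (226 and 88.03 CPM), their most abundant gene, and sums of 419 and 272 CPM. Plasmacytoid DC markers (5 of 7 tested, 1 rose, 1 fell) summed to 239 and 238 CPM, led by Bst2, with Klk1 at 0 in VD3 stimulated DCs. Platelet markers (4 of 7 tested, 1 rose, 1 fell) summed to 592 and 298 CPM, led by Pf4 (556 and 290.2 CPM). B cell markers (4 of 8 tested, 2 rose, 1 fell) summed to 20.7 and 71.1 CPM, led by the Igkc of the single cell above, and their median of 0.63 became -0.91 without that cell. T or NK cell markers summed to 5.14 and 2.44 CPM, led by Klrd1 as the 1 of 10 tested, with Ncr1 and Gzma at 0 in both libraries. Erythroid (4.82 and 2.01 CPM, led by Hbb-bt as the 1 of 8 tested, Car1 at 0 in both), stromal (3.85 and 0.215 CPM, 0 of 8 tested, led by Col1a2, Lum at 0 in both) and endothelial markers (9.91 and 8.51 CPM, 2 of 6 tested, led by Vwf) were near absent.

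The difference was also measured within cells split by mature DC markers. Cells were drawn down to 2000 UMIs and split by whether they held at least 3 of 8 mature DC markers, which gave 3116 untreated and 3980 VD3 stimulated cells with them and 3669 and 3696 without. Shallower cells, 472 untreated and 1149 VD3 stimulated, were left out of this split. In cells with mature markers 226 genes were at least 2-fold higher (2.35% of 9631) and 386 lower (4.01%). In the other cells 361 were higher (3.6% of 10035) and 538 lower (5.36%). Cyp24a1 reached 120.1 CPM in mature and 577 CPM in other VD3 stimulated cells. Vdr went from 86.4 to 144 CPM in mature cells (log2 0.74) and from 24.8 to 125 CPM in the others (log2 2.33), and the difference between both was not tested. Gdf15 and Hbegf rose in either kind of cell, with log2 ratios of 5.45 and 5.48 for Gdf15 and 4.37 and 4.34 for Hbegf in mature and other cells. Falls that were short of 2-fold in mature cells included those of Il1rn (log2 -0.63), Ass1 (-0.66), Alas1 (-0.63), H2-DMb1 (-0.72), Srxn1 (-0.77) and Klf4 (-0.82). Ccr2, Mgl2 and Mmp12 fell in both, with log2 ratios of -4.31 and -3.78 for Mmp12.

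The knockout DCs share the untreated library as their control, so both comparisons are not independent, and values are given side by side. Cyp24a1 had 0 UMIs in knockout DCs, and Gdf15 was at 6.84 and 246 CPM without and with vitamin D3 and at 5.66 CPM in knockout DCs. Hbegf was at 4.03 CPM and Pdgfa at 15.5 CPM in knockout DCs, near their untreated levels. Igf1 stood at 20.5 and 2.396 CPM without and with vitamin D3 and at 208 CPM in knockout DCs. Ccdc80 was at 163 CPM and Fabp4 at 126 CPM in knockout DCs, above untreated DCs, whereas Cdh1 (6.698 CPM) and Asgr2 (6.48 CPM) were below them, as after vitamin D3.

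The limit of 200 UMIs set which scarce genes were included. Just inside it, Tlr12 had 200 and 139 UMIs, and Lgals4 128 and 200. Just outside it, Slc12a8 had 1 and 199 UMIs (log2 7.82) and Fjx1 1 and 196 (log2 7.80), which would have ranked among the highest ratios, and the interferon-induced Ifi205 had 199 and 42 (log2 -2.06).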

How the data were processed

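The deposited files hold UMI counts per gene and cell barcode that the authors made with Cell Ranger (3.1.0 per the file headers). The paper names the mm10 build and the submitters' processing notes name mm9, so no genome position is given; gene types came from GENCODE M21. The files also list 10 antibody features, each at 0 UMIs. Counts were summed over kept cells of each library and scaled to CPM. Ratios carry exact conditional binomial 95% intervals and CPM exact Poisson intervals. A count of 0 was set to a floor of 3 UMIs in a ratio. Nothing was tested across cells.

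Genes were described through 64 gene lists, 18 marker lists and symbol stems with at least 10 tested genes. Members and lists were chosen with earlier results of these data known. Named genes were drawn from the 20 highest and 20 lowest ratios (ribosomal protein and mitochondrial genes left out), the 4 highest, 4 lowest and 2 most abundant genes of each list (all of them in lists with under 12 tested), the 10 most abundant genes, genes at 0 in 1 library, the 6 highest and 6 lowest stems, and genes next to the 200 UMI limit. A few of these genes are not reported here.

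Scrublet (scanpy 1.11.5) marked 1 untreated and 0 VD3 stimulated cells as doublets, so its automatic threshold did not separate any, and all cells were kept. An alternative left out the highest 6% of its scores (432 and 492 cells). Other alternatives were 300 UMIs in place of 300 genes, all deposited barcodes, under 5% mitochondrial UMIs, median-ratio size factors, the mean over cells, totals without mitochondrial and ribosomal protein genes, minimums of 50 and 1000 UMIs, leaving out cells holding granulocyte, monocyte or proliferation markers, and mature or other cells alone.

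A direct repeat with 3 bases between its copies, the pattern bound by Vdr with a retinoid X receptor, was looked for with the common half-site and close variants of it as copies, on both strands of RefSeq promoter windows (250 bases before to 50 after the start). Among genes with a window, 0 of 252 at least 2-fold higher and 1 of 490 at least 2-fold lower had the repeat. Among all tested genes with a window it was 21 of 8611 (0.244%). At so low a share these counts cannot tell the sets apart, and they are a description only. Python 3.11.15, NumPy 2.4.6, pandas 2.3.3, SciPy 1.17.1 and matplotlib 3.10.9 were used, and the steps were tested on simulated data.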

Additional observations from a re-analysis of the deposited data

Results flagged for a closer look

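Of the 9168 genes with at least 200 UMIs in either library both in cells holding mature DC markers and in the other cells, 4 were at least 2-fold different in opposite directions. They were chosen after their values were seen, and the difference between both kinds of cells was not tested. Igkc, the kappa light chain, had a log2 ratio of -1.72 in mature cells and 3.71 in the others, where 1 VD3 stimulated cell held 3994 of its UMIs. Gbp4, an interferon-induced guanylate-binding protein, went from 12.8 to 5.43 CPM in mature cells (log2 -1.24) and from 1.16 to 4.25 CPM in the others (log2 1.87). Prr7, a proline-rich membrane protein, went from 3.605 to 1.61 CPM in mature cells (log2 -1.16) and from 2.64 to 5.87 CPM in the others (log2 1.15). The predicted gene Gm266 went from 45.9 to 18.8 CPM (log2 -1.29) and from 3.09 to 6.97 CPM (log2 1.17).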

How the results depend on the processing

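Of 590 named genes, 251 differed by at least 2-fold, and under 14 alternatives 250 of these kept their sign where they could be computed and 159 stayed past 2-fold. Igha and Jchain count among both, but without the immunoglobulin-rich cell they had under 200 UMIs and were skipped, and their counts there were 33 and 6 (the other sign) and 7 and 12 UMIs. Of 81 list and marker medians, 51 kept their sign under every alternative. The main counts were 327 genes higher and 658 lower. With only cells under 5% mitochondrial UMIs 159 genes were higher and 528 lower, with fewer cells (3125 and 3619) and 9072 genes tested. Higher genes were 23.1% of those past 2-fold there against 33.2% in the main comparison, and the cause was not tested. With a minimum of 1000 UMIs 178 were higher and 395 lower among 8305 genes. With a minimum of 50 UMIs 499 were higher and 925 lower among 12560. Both limits left the ratios as they were and changed only which genes were counted. In cells holding mature DC markers 226 were higher and 386 lower among 9631 genes, and the cause was not tested. Of the named genes and medians past 2-fold, 2 reversed where computed, the median of eosinophil markers, 1.12 without the cells of the highest 6% of Scrublet scores against -1.27 with them, and Stfa2, -1.01 without cells holding granulocyte or monocyte markers against 1.36 with them. The cause was not tested for either. Beyond the named genes, up to 3 of all genes past 2-fold had the other sign under a single alternative, and Igkc went from 2.81 to -1.72 in mature cells. Smaller values also changed sign, among them Cdkn2b (0.83 against -1.20 in cells under 3 mature DC markers), Rhoc (0.96 against -0.25 in those cells), Pparg (-0.74 against 0.48 in cells holding mature markers), and the medians of B cell markers (0.63 against -0.91 without the immunoglobulin-rich cell), basophil or mast cell markers (-0.39 against 0.41 under 5% mitochondrial UMIs), platelet markers (-0.43 against 0.06 under that limit) and chemokine receptors (0.75 against -0.18 in cells under 3 mature DC markers). Median-ratio scaling moved the median of all genes by 0.075, to 382 higher and 572 lower, and totals without mitochondrial and ribosomal protein genes by 0.095, to 389 and 550. Leaving out the immunoglobulin-rich cell, chosen after the data were seen, gave 324 higher and 659 lower. No paired analysis was possible because each condition had 1 library. Depth limits the result for scarce genes, as the 95% counting interval lay wholly past 2-fold for 270 of the 327 and 504 of the 658 genes.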
